A study of Avena sativa with 6 samples.

Results

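Genes for the helicase subunits MCM2 to MCM7 and for the sliding clamp PCNA were followed in oat grains from shaded and unshaded ears. They were taken as every row of the deposited gene table whose KEGG annotation carries the entry for MCM2 (K02540), MCM3 (K02541), MCM4 (K02212), MCM5 (K02209), MCM6 (K02542), MCM7 (K02210) or PCNA (K04802), which gave 34 of 136488 genes. Of these, 28 carry an MCM entry and 6 the PCNA entry. A further annotation in the table, which the choice did not use, names the MCM family for 28 of the 28 and an auxiliary protein of DNA polymerase delta for 6 of the 6. The 3 MCM5 genes also carry the entry for the endoribonuclease Dicer.

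RNA was taken from peeled grains of Baiyan No.9 (BY9), a high-oil oat cultivar. The ear-shaded group is 3 libraries of grains whose ears had been shaded for 4 days once flowering had taken place, and the unshaded group is 3 libraries of the same cultivar with no shading. The study asks what ear photosynthesis contributes to grain weight and oil. The age of the unshaded grains is not in the labels. Photosynthesis genes, were far higher in the libraries labelled ear-shaded, with psbO at sums of 180 to 216 FPKM there and 2.65 to 4.58 FPKM in those labelled unshaded. No other value in the files used here checks which libraries were shaded. Groups are named as labelled, and an exchange of the 2 labels would turn every higher and lower call. Nor do the labels say that each library is a separate plant or plot, so the p-values speak to the spread among these libraries, which may be technical.

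MCM2 to MCM7 form a ring that is loaded onto replication origins before S phase and, once activated, unwinds DNA ahead of the replication fork. PCNA is the ring-shaped clamp that holds DNA polymerases on the template and recruits ligation, repair and chromatin factors. Both are classical markers of proliferating cells, and in a young cereal grain such cells lie in the endosperm, the embryo and the maternal seed coats. Oat is a hexaploid, and how reads that match several near-identical gene copies were divided among them is not given in the sources used here, so values of single copies are less certain than their sums. In RNA from whole grains, fewer dividing cells and less RNA per cell cannot be told apart.

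Levels are in FPKM, fragments scaled to gene length and to the mapped total and are per length, the scale on which different genes are set side by side. How the length of models as short as 264 bases was allowed for is not given in the sources used here, so levels are less comparable where short models enter. Together the 34 genes summed to 358, 397 and 355 FPKM in the unshaded libraries and to 508, 511 and 615 FPKM in the ear-shaded libraries. All 3 ear-shaded sums lay above all 3 unshaded sums. The means were 370 ± 23.4 and 545 ± 60.8 FPKM (SD, n = 3), a 1.47-fold difference where the median fold of all tested genes was 1.27. With libraries scaled by the median of ratios, the fold of the sum was 1.16.

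All 34 genes had a mean of at least 1 FPKM and were tested with limma. At an adjusted p under 0.05, 26 were higher in the ear-shaded libraries, 4 were lower and 4 did not pass, where 42.4% of all 58283 tested genes were higher and 21.5% lower. The groups did not overlap in the same 26 genes with the ear-shaded libraries above, a state of 46.2% of all tested genes, and in 4 with them below, a state of 24.0%. The higher calls were 4 of 5 for MCM2, 3 of 3 for MCM3, 8 of 11 for MCM4, 3 of 3 for MCM5, 2 of 3 for MCM6, 3 of 3 for MCM7 and 3 of 6 for PCNA. The lower calls were 1 for MCM2, 2 for MCM4 and 1 for PCNA. On the log2(FPKM + 1) scale the median change was 0.68, which is 0.42 above the median of all tested genes of 0.26. Median-of-ratios scaling, which brings the median of all genes to 0.01, left 15 of the 26 higher calls, with 11 no longer passing, and kept 4 of the 4 lower calls. The background under that scaling was 29.7% higher and 29.8% lower, and the 34 genes kept a median of 0.36.

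**Figure D1:**
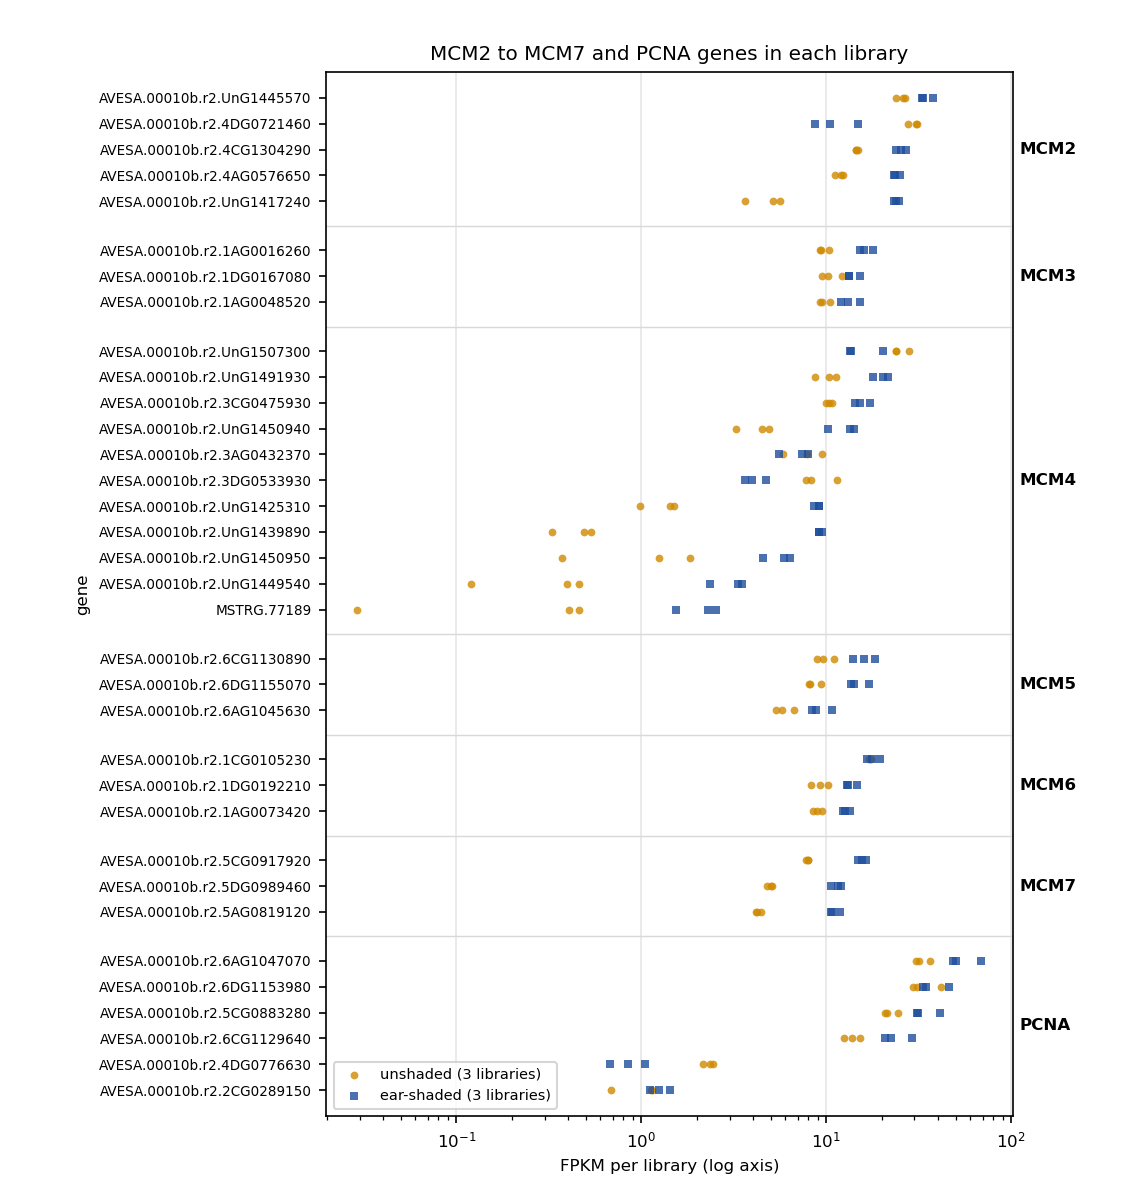
FPKM of each of the 34 genes on a log axis, with 1 point per library, circles for the 3 unshaded and squares for the 3 ear-shaded libraries, and genes grouped by subunit. The squares lie wholly to the right of the circles in 26 genes and wholly to the left in 4, as deposited, and 15 of those 26 higher calls remain after median-of-ratios scaling.

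The libraries held summed FPKM of 493004.4 to 561771.7, and read depth is unknown. Ear-shaded replicate 3 was the highest of its group in 29 of the 34 genes, where 34.7% of all tested genes had it highest. Unshaded replicate 2 was highest of its group in 20 of the 34, where the share of all tested genes was 32.0%. Over the 34 genes, ear-shaded replicates 1 and 2 differed by a median of 0.0773 on the log2 scale, and each differed from replicate 3 by 0.185. The unshaded group was alike: replicates 1 and 3 differed by 0.0714, and they differed from replicate 2 by 0.185 and 0.187. Without ear-shaded replicate 3 the fold of the summed FPKM was 1.38.

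The grain's cell markers moved with the groups. Storage proteins with a gliadin domain, made in starchy endosperm, summed to 11373.0 to 23015.8 FPKM in the unshaded and 3216 to 5486 FPKM in the ear-shaded libraries, with 23 of 27 tested genes lower. Granule-bound starch synthase, also of the endosperm, had 1 of 4 tested genes higher and 2 lower, at sums of 485 to 634 and 369 to 453 FPKM. Sucrose synthase, which feeds starch synthesis there, was lower in 7 of 10, at 2261 to 2889 and 1249 to 1556 FPKM. Of the embryo and oil-cell markers, oleosins were lower in 5 of 5, at 18.2 to 32.0 and 7.05 to 7.61 FPKM. Peroxygenases had 10 of 19 higher and 7 lower, at 672 to 1163 and 320 to 438 FPKM. LEA proteins had 51 of 80 higher and 12 lower, at 475 to 762 and 1101 to 1396 FPKM. Markers of green tissue stood higher in the libraries labelled ear-shaded: 41 of 41 light-harvesting proteins, at 12.8 to 20.8 and 583 to 728 FPKM, 3 of 3 psaL genes, at 1.13 to 2.81 and 160 to 203 FPKM, and 3 of 3 psbO genes, at the sums given above. No marker gene set had a gene at 0 in all libraries, which was true of all 136488 genes and so is no trait of the markers. What part these markers have in the levels of the replication genes was not tested.

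MCM7, which sits beside MCM3 and MCM4 in the ring, had the largest fold of the 7 proteins by summed FPKM. Its 3 genes summed to 17.0, 17.5 and 17.0 FPKM in unshaded libraries and to 36.3, 37.7 and 40.3 FPKM in ear-shaded libraries. No library of either group came near the other group. The fold of 2.22 fell to 1.75 with median-of-ratios scaling. AVESA.00010b.r2.5CG0917920 was at 7.98, 7.94 and 7.80 FPKM in the unshaded and 14.9, 15.6 and 16.4 FPKM in the ear-shaded libraries. This most abundant copy rose 1.98-fold, from 7.91 ± 0.0959 to 15.7 ± 0.753 FPKM (SD, n = 3; log2 change 0.90, SE 0.11, limma adjusted p = 0.000246). AVESA.00010b.r2.5DG0989460 was at 4.78, 5.08 and 5.04 FPKM against 10.7, 11.6 and 12.1 FPKM, and rose 2.30-fold (limma adjusted p = 0.000131). Both groups of this copy were narrow and far apart. AVESA.00010b.r2.5AG0819120 was at 4.21, 4.44 and 4.17 FPKM against 10.7, 10.6 and 11.8 FPKM. It rose 2.59-fold, the largest fold of any MCM model of at least 2000 bases (log2 change 1.19, SE 0.11, limma adjusted p = 8.27e-05). All 3 MCM7 calls held in each of 19 alternative settings, median-of-ratios scaling included (log2 changes 0.59, 0.76 and 0.89).

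MCM2 is the subunit that also binds histones H3 and H4. Its 5 genes summed to 86.5 ± 3.35 FPKM in the unshaded and 119 ± 8.01 FPKM in the ear-shaded libraries (SD, n = 3), a 1.38-fold difference. The 5 gene models run from 264 to 3884 bases and did not change alike. The 3884-base model, AVESA.00010b.r2.4CG1304290, was at 14.6, 14.5 and 14.8 FPKM in the unshaded and 23.8, 25.3 and 27.1 FPKM in the ear-shaded libraries, 1.74-fold higher (log2 change 0.76, SE 0.11, limma adjusted p = 0.000791). The 3596-base model, AVESA.00010b.r2.4AG0576650, was at 12.3, 11.2 and 12.0 FPKM against 23.6, 23.3 and 25.1 FPKM, 2.03-fold higher (limma adjusted p = 0.000234). Both long models kept their call with median-of-ratios scaling (log2 changes 0.43 and 0.64).

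AVESA.00010b.r2.UnG1417240, at 1994 bases, was at 5.61, 3.65 and 5.13 FPKM in the unshaded and 24.6, 23.4 and 23.7 FPKM in the ear-shaded libraries. It rose 4.99-fold, from 4.80 ± 1.02 to 23.9 ± 0.663 FPKM (SD, n = 3; limma adjusted p = 4.33e-05), and passed with median-of-ratios scaling as well (log2 change 1.81). The 264-base model, AVESA.00010b.r2.4DG0721460, went the other way. It was at 30.9, 30.8 and 27.7 FPKM in the unshaded and at 10.4, 8.64 and 14.9 FPKM in the ear-shaded libraries, and fell 2.63-fold (log2 change -1.35, SE 0.19, limma adjusted p = 0.000553). Its length lies within the 250 to 300 bases of the sequenced cDNA fragments; what that does to its FPKM was not tested. The 636-base model, AVESA.00010b.r2.UnG1445570, was at 26.7, 25.9 and 24.0 FPKM against 33.1, 33.4 and 37.8 FPKM, 1.36-fold higher (limma adjusted p = 0.0174). That call was lost with median-of-ratios scaling (log2 change 0.10, adjusted p = 0.597) and without ear-shaded replicate 2 (adjusted p = 0.0510).

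Within each library the make-up of MCM2 changed, a reading that no scaling of libraries touches. The 264-base model made up 34.4% ± 1.33 of the MCM2 FPKM in unshaded and 9.39% ± 2.02 in ear-shaded libraries (SD, n = 3). The 1994-base model went from 5.54% ± 1.12 to 20.1% ± 1.47. Set against the 3596-base copy of the same library, the 1994-base model stood at ratios of 0.454, 0.326 and 0.428 in unshaded and 1.04, 1.00 and 0.946 in ear-shaded libraries. The sum of the MCM2 genes therefore depends on how models are weighted, and with each gene weighted by its length the fold was 1.94.

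MCM4 had 11 gene models, of which a single one, AVESA.00010b.r2.3CG0475930 at 3124 bases, is longer than 2000 bases. It was at 10.3, 10.8 and 9.98 FPKM in the unshaded and 15.2, 14.3 and 17.2 FPKM in the ear-shaded libraries. The groups did not overlap, and it rose 1.51-fold as deposited (log2 change 0.54, SE 0.12, limma adjusted p = 0.00449), a call that median-of-ratios scaling lost (log2 change 0.23, adjusted p = 0.186). The 10 shorter models run from 438 to 1309 bases and moved in both directions.

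AVESA.00010b.r2.UnG1439890, at 920 bases, was at 0.490, 0.327 and 0.534 FPKM in the unshaded and at 9.45, 9.12 and 9.14 FPKM in the ear-shaded libraries. This 20.5-fold rise was the largest of all 34 genes (log2 change 2.82, SE 0.11, limma adjusted p = 6.17e-06). AVESA.00010b.r2.UnG1425310, at 1200 bases, rose 6.86-fold, from 1.30 ± 0.280 to 8.93 ± 0.297 FPKM (SD, n = 3; limma adjusted p = 2.45e-05). AVESA.00010b.r2.UnG1491930, at 438 bases, was at 10.4, 8.70 and 11.3 FPKM against 20.2, 17.8 and 21.7 FPKM, 1.96-fold higher (limma adjusted p = 0.000824). These 3 passed in the same direction with median-of-ratios scaling. So did the other 4 short models called higher, whose folds ran from 2.98 to 9.43. They include AVESA.00010b.r2.UnG1450940 and AVESA.00010b.r2.UnG1450950, numbered next to each other in the annotation, at means of 4.23 and 1.15 FPKM in the unshaded and 12.6 and 5.60 FPKM in the ear-shaded libraries. AVESA.00010b.r2.UnG1449540 and MSTRG.77189 had means of 0.326 and 0.300 FPKM in the unshaded and 3.07 and 2.12 FPKM in the ear-shaded libraries. Like AVESA.00010b.r2.UnG1439890, with an unshaded mean of 0.450 FPKM, they met the filter of 1 FPKM only through the ear-shaded libraries. Their higher calls and large folds are to be read with that limit.

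The MCM4 model that was most abundant in unshaded libraries fell, and in ear-shaded libraries AVESA.00010b.r2.UnG1491930 stood above it. AVESA.00010b.r2.UnG1507300, at 522 bases, was at 23.8, 28.0 and 24.0 FPKM in the unshaded and 13.6, 13.5 and 20.3 FPKM in the ear-shaded libraries. Ear-shaded replicate 3 lay closest to the unshaded group, and the fall of 1.60-fold passed the test (log2 change -0.67, SE 0.18, limma adjusted p = 0.0122). The call was lost without ear-shaded replicate 1 (adjusted p = 0.0535) or 2 (adjusted p = 0.0539). AVESA.00010b.r2.3DG0533930, at 1309 bases, was at 8.24, 11.5 and 7.78 FPKM against 3.66, 3.96 and 4.70 FPKM, and fell 2.23-fold (log2 change -0.98, limma adjusted p = 0.00127). A further model, AVESA.00010b.r2.3AG0432370, overlapped between groups at 5.86, 9.52 and 7.86 FPKM against 7.37, 5.53 and 7.92 FPKM and did not pass (limma adjusted p = 0.569).

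Read within libraries, AVESA.00010b.r2.UnG1439890 stood at 0.0474, 0.0304 and 0.0536 of the level of the long MCM4 copy in unshaded libraries and at 0.621, 0.636 and 0.531 of it in ear-shaded libraries. AVESA.00010b.r2.3DG0533930 went the other way, from a mean ratio of 0.882 ± 0.161 to 0.263 ± 0.0196 (SD, n = 3). The long copy itself kept a like share of all MCM4 FPKM, 14.7% ± 0.816 in unshaded and 15.0% in ear-shaded libraries. The share of AVESA.00010b.r2.UnG1507300 went from 35.9% to 15.0%. Whether the short models are genes of their own or pieces of longer ones was not tested.

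**Figure D2:**
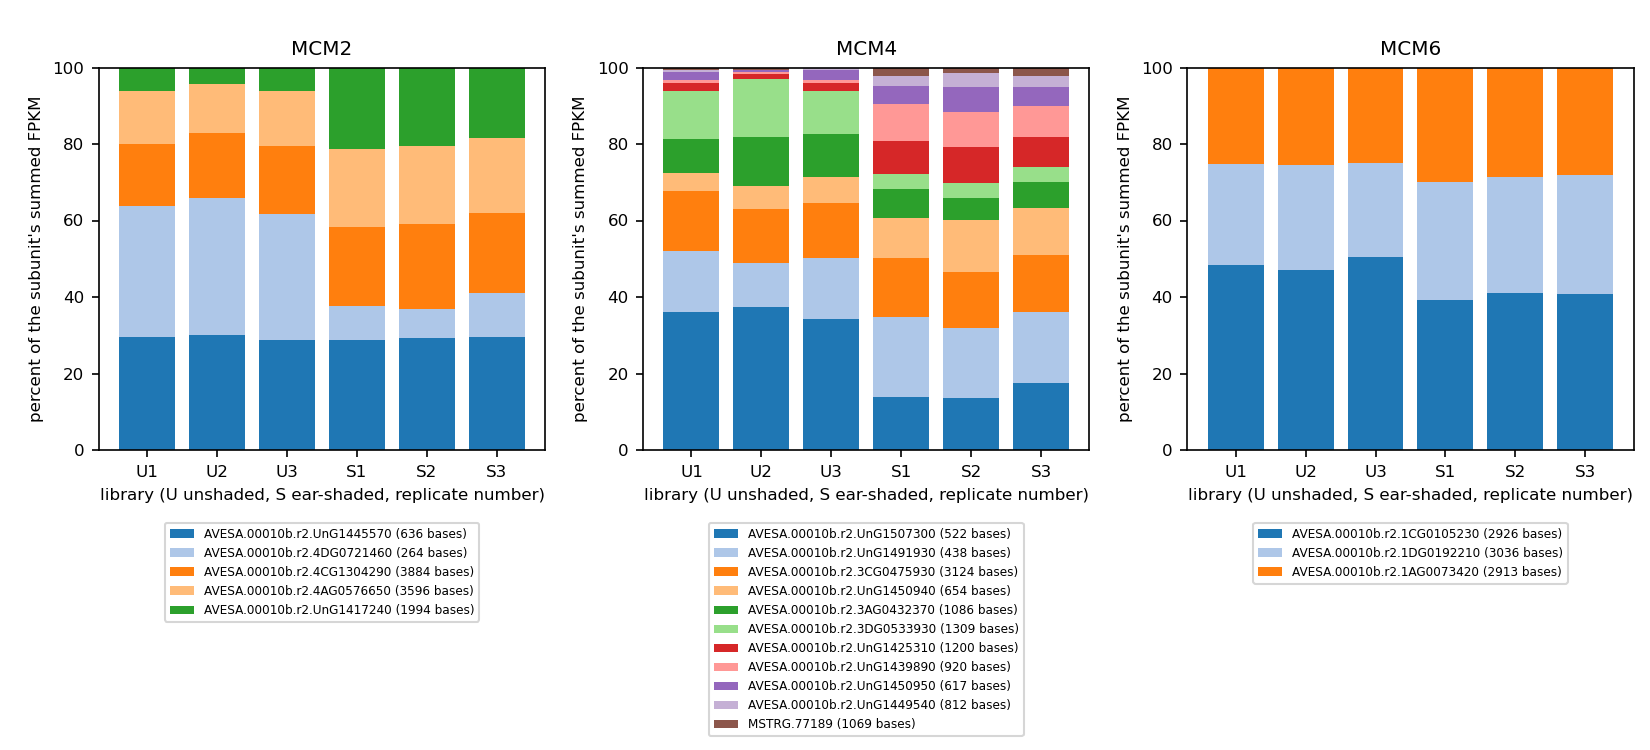
Share of each gene in the summed FPKM of MCM2, MCM4 and MCM6, in percent, for the 3 unshaded (U) and 3 ear-shaded (S) libraries, with gene lengths in the keys. The shares are unaffected by library scaling: the 264-base MCM2 model shrinks from 34.4% to 9.39%, short MCM4 models exchange places, and the most abundant MCM6 copy goes from 48.7% to 40.4%.

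The 13 MCM models under 2000 bases belong to MCM2 (3) and MCM4 (10), and the other 4 subunits have long models only, so length and subunit cannot be told apart. Of the 15 models of at least 2000 bases, 14 were higher as deposited and 1 did not pass, with folds between 1.04 and 2.59. After median-of-ratios scaling 7 were higher and 8 did not pass. Of the 13 shorter models, 9 were higher and 3 lower, with folds from 0.380 to 20.5, and after median-of-ratios scaling 8 were higher and 3 lower. The line at 2000 bases was drawn after the values were seen, and the lengths nearest to it are 1994 and 2443 bases. Short models took 45.5% ± 0.363 of the MCM FPKM in unshaded and 40.6% ± 0.469 in ear-shaded libraries (SD, n = 3). The 15 long models alone summed to 144 ± 6.45 and 232 ± 17.5 FPKM, a 1.61-fold difference.

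**Figure D3:**
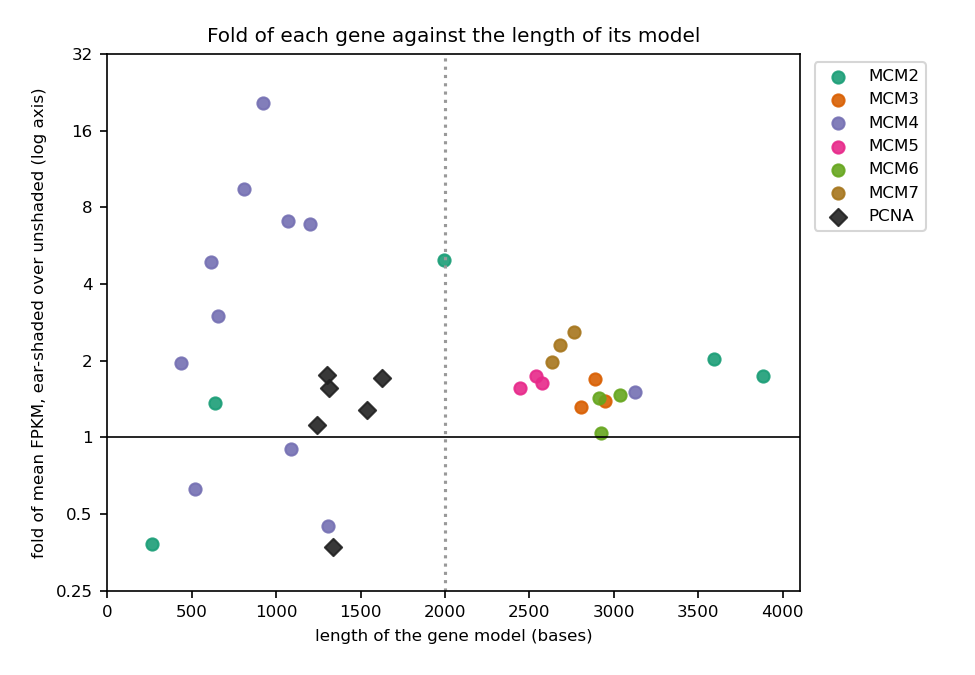
Fold of mean FPKM, ear-shaded over unshaded, on a log axis against the length of the gene model in bases, coloured by subunit, with PCNA as diamonds and a dotted line at 2000 bases. Long MCM models lie between 1.04 and 2.59 as deposited, while shorter ones, all of MCM2 or MCM4, spread from 0.380 to 20.5.

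MCM5 forms with MCM2 the gate through which the ring opens, and MCM3 lies beside MCM5. Each has 3 genes, all of at least 2000 bases. The MCM3 copy AVESA.00010b.r2.1AG0016260 was at 9.42, 10.4 and 9.29 FPKM in the unshaded and 16.0, 15.3 and 17.9 FPKM in the ear-shaded libraries. It rose 1.69-fold (log2 change 0.70, limma adjusted p = 0.00133) and passed with median-of-ratios scaling (log2 change 0.38, adjusted p = 0.0411). AVESA.00010b.r2.1AG0048520 was at 9.22, 10.5 and 9.54 FPKM against 13.2, 12.1 and 15.3 FPKM, 1.39-fold higher (limma adjusted p = 0.0184). AVESA.00010b.r2.1DG0167080 was at 9.48, 12.2 and 10.3 FPKM against 13.3, 13.3 and 15.2 FPKM, 1.31-fold higher (limma adjusted p = 0.0386). Neither of these 2 calls held with median-of-ratios scaling. The first was lost without unshaded replicate 1 (adjusted p = 0.0612) or ear-shaded replicate 1 (adjusted p = 0.0552). The second was lost without any 1 library other than unshaded replicate 2 (adjusted p from 0.0730 to 0.127).

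The MCM5 genes were more even. AVESA.00010b.r2.6CG1130890 was at 8.86, 11.1 and 9.55 FPKM in the unshaded and 13.9, 16.0 and 18.4 FPKM in the ear-shaded libraries, 1.64-fold higher (limma adjusted p = 0.00464). AVESA.00010b.r2.6DG1155070 was at 8.10, 9.37 and 8.13 FPKM against 13.6, 14.2 and 17.0 FPKM, 1.75-fold higher (limma adjusted p = 0.00167). AVESA.00010b.r2.6AG1045630 was at 5.36, 6.72 and 5.76 FPKM against 8.75, 8.41 and 10.8 FPKM, 1.57-fold higher (limma adjusted p = 0.00747). In all 3 genes each ear-shaded value lay above each unshaded value as deposited, and AVESA.00010b.r2.6DG1155070 alone passed with median-of-ratios scaling (log2 change 0.42, adjusted p = 0.0387). Their shares of the MCM5 FPKM hardly moved, at 40.4%, 35.2% and 24.4% in unshaded and 39.9%, 37.0% and 23.1% in ear-shaded libraries.

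MCM6, the partner of MCM2 and MCM4 in the ring, had the smallest fold of the 7 sums. Its most abundant copy, AVESA.00010b.r2.1CG0105230, was at 17.1, 17.5 and 17.2 FPKM in the unshaded and 16.6, 17.7 and 19.4 FPKM in the ear-shaded libraries. The groups overlapped, and the difference did not pass (log2 change 0.05, limma adjusted p = 0.736; -0.28 with median-of-ratios scaling, adjusted p = 0.105). AVESA.00010b.r2.1DG0192210 was at 9.26, 10.2 and 8.32 FPKM against 13.2, 13.0 and 14.7 FPKM, 1.47-fold higher (limma adjusted p = 0.00708). AVESA.00010b.r2.1AG0073420 was at 8.92, 9.48 and 8.45 FPKM against 12.6, 12.3 and 13.4 FPKM, 1.43-fold higher (limma adjusted p = 0.00620). Both of these calls were lost with median-of-ratios scaling, under which the summed MCM6 FPKM stood at a fold of 0.983 in place of 1.25.

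Ratios of the subunits' summed FPKM within a library are free of library scaling. They are ratios of RNA, and protein was not measured. The MCM7 sum over the MCM6 sum was 0.482, 0.470 and 0.501 in unshaded and 0.856, 0.879 and 0.849 in ear-shaded libraries. The MCM5 sum over the MCM6 sum went from 0.685 ± 0.0490 to 0.908 ± 0.0578, and that of MCM3 over MCM6 from 0.848 ± 0.0461 to 0.990 ± 0.0380 (SD, n = 3). In each of these 3 ratios all ear-shaded libraries lay above all unshaded ones. The ratio of MCM7 to MCM3 went from 0.572 to 0.871. The 4 subunits with long models only thus stood in the unshaded order of MCM6 at 35.5 ± 1.63, MCM3 at 30.1 ± 2.60, MCM5 at 24.3 ± 2.53 and MCM7 at 17.1 ± 0.273 FPKM, with no overlap between neighbours. In ear-shaded libraries they stood at 44.3 ± 2.80, 43.9 ± 4.06, 40.3 ± 5.14 and 38.1 ± 2.04 FPKM, and each overlapped its neighbour. Above them lay PCNA, MCM2 and MCM4, in that order, at 106, 86.5 and 70.4 FPKM in the unshaded and 155, 119 and 104 FPKM in the ear-shaded libraries. Of these, MCM2 and MCM4 overlapped in the ear-shaded libraries. In the unshaded libraries the place of MCM2 and MCM4 rests on their short models. Their long models alone summed there to 26.4 and 10.4 FPKM, the first below MCM3 and the second below MCM7. In the ear-shaded libraries the long MCM2 models alone had a mean of 49.4 FPKM, above that of MCM6, though the values overlapped. The long MCM4 model was at 15.6 FPKM there, below MCM7.

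PCNA had 6 genes, of which 4 made up nearly all of its RNA. AVESA.00010b.r2.6AG1047070 was at 31.7, 36.3 and 30.4 FPKM in the unshaded and 50.4, 48.2 and 68.9 FPKM in the ear-shaded libraries. Its mean over the 6 libraries was the highest of the 34 genes, and it rose 1.70-fold, from 32.8 ± 3.11 to 55.8 ± 11.4 FPKM (SD, n = 3; limma adjusted p = 0.00700). AVESA.00010b.r2.5CG0883280 was at 21.3, 24.3 and 20.9 FPKM against 31.0, 31.4 and 41.2 FPKM, 1.56-fold higher (limma adjusted p = 0.00911). AVESA.00010b.r2.6CG1129640 was at 12.4, 15.3 and 13.7 FPKM against 20.9, 22.4 and 29.2 FPKM, 1.75-fold higher (limma adjusted p = 0.00386). In all 3, ear-shaded replicate 3 was well above its fellows, and none of the 3 calls held with median-of-ratios scaling (adjusted p from 0.0623 to 0.208). AVESA.00010b.r2.6DG1153980, which had the highest mean of the PCNA genes in the unshaded libraries, overlapped between groups at 31.0, 41.6 and 29.5 FPKM against 33.2, 34.7 and 46.2 FPKM and did not pass (log2 change 0.16, limma adjusted p = 0.489; -0.17 with median-of-ratios scaling).

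The 2 remaining PCNA genes were low. AVESA.00010b.r2.4DG0776630 was at 2.37, 2.44 and 2.15 FPKM in the unshaded and 0.851, 0.681 and 1.05 FPKM in the ear-shaded libraries. It fell 2.69-fold (log2 change -0.84, SE 0.12, limma adjusted p = 0.000667), also with median-of-ratios scaling (log2 change -1.04). With an ear-shaded mean of 0.862 FPKM, it met the filter of 1 FPKM only through the unshaded libraries. Relative to AVESA.00010b.r2.6AG1047070 of the same library it went from a ratio of 0.0709 ± 0.00380 to 0.0154 ± 0.00139 (SD, n = 3). AVESA.00010b.r2.2CG0289150 was at 0.689, 1.13 and 1.15 FPKM against 1.43, 1.24 and 1.12 FPKM and did not pass (limma adjusted p = 0.243). Within PCNA the share of AVESA.00010b.r2.6DG1153980 went from 31.9% to 24.6% and that of AVESA.00010b.r2.6AG1047070 from 31.0% to 36.0%. The PCNA sum over that of the long MCM models was 0.711, 0.800 and 0.697 in unshaded and 0.626, 0.622 and 0.746 in ear-shaded libraries, and the groups overlapped.

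**Figure D4:**
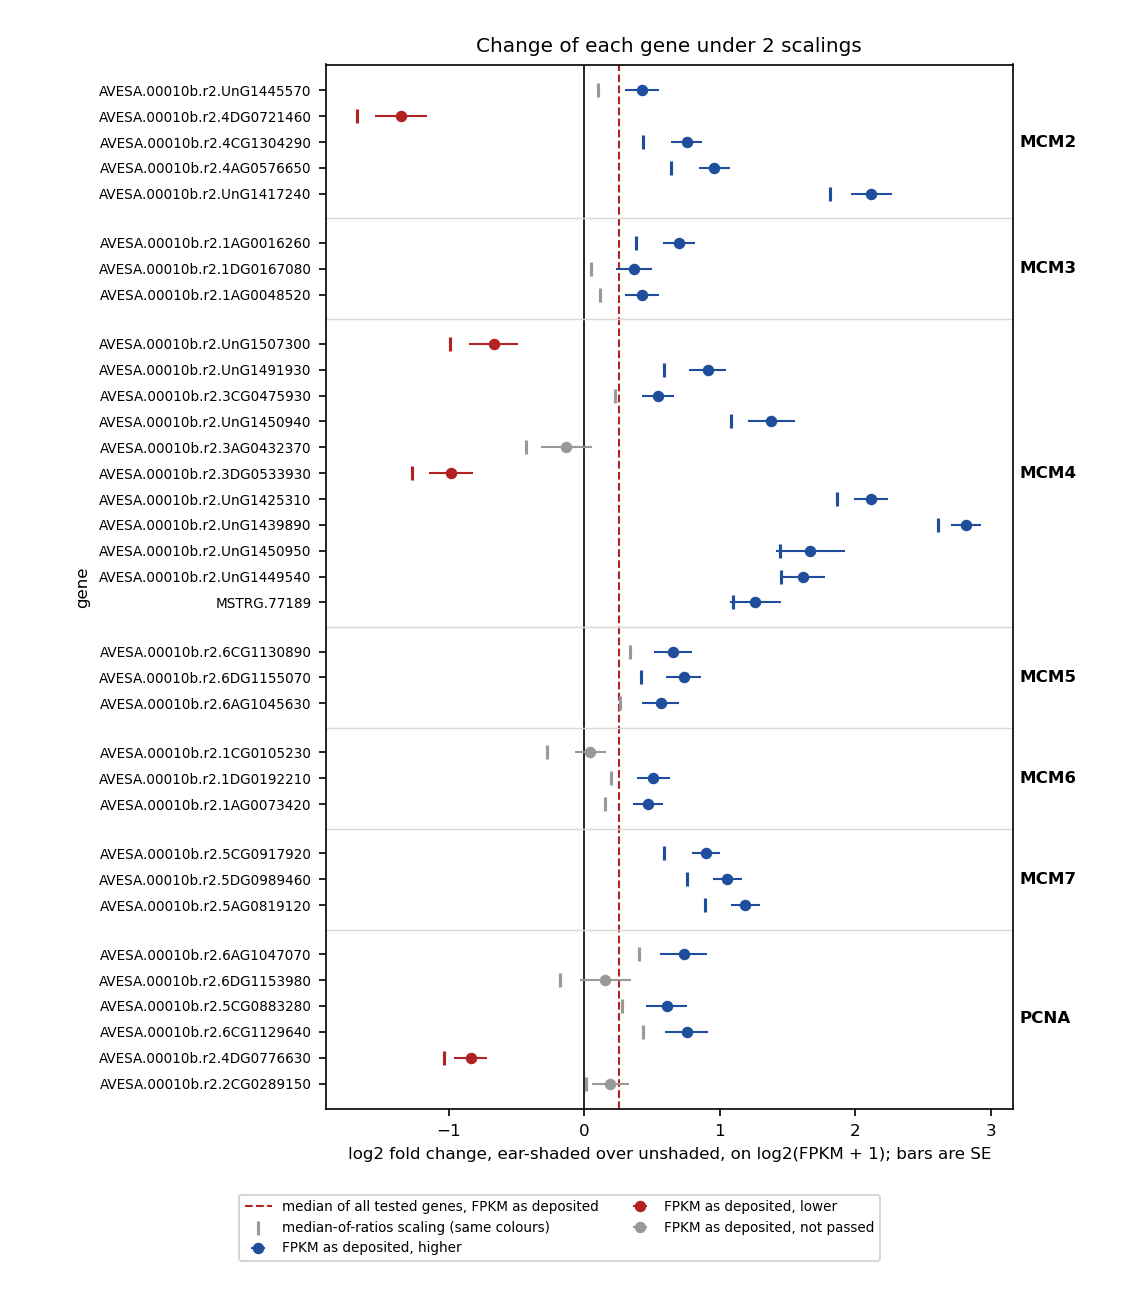
Log2 change on the log2(FPKM + 1) scale, ear-shaded over unshaded, with its SE, for each of the 34 genes as deposited (points), and with median-of-ratios scaling (ticks), coloured by call. The ticks lie to the left of the points, 11 of 26 higher calls turn grey, and AVESA.00010b.r2.1CG0105230 and AVESA.00010b.r2.6DG1153980, which did not pass, change sign.

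The authors' deposited table marks 7 of the 34 genes as up and 4 as down, where 16.8% and 19.5% of all tested genes are so marked. The 7 marked up in the authors' deposited table are all MCM models under 2000 bases, 6 of MCM4 and 1 of MCM2. The 4 marked down there are the 4 that fell here. None of the 15 long MCM models carries a mark in the authors' deposited table, where the 3 MCM7 genes have log2 fold changes of 0.60, 0.82 and 0.99 and adjusted p-values of 0.000939, 4.94e-06 and 1.48e-07. For AVESA.00010b.r2.1CG0105230 the authors' deposited table gives a log2 fold change of -0.33.

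The other genes of DNA replication were taken from a list of 51 KEGG entries, which gave 474 rows. Of 273 tested, 130 were higher and 32 lower as deposited, 47.6% and 11.7%, against the 42.4% and 21.5% of all genes. Their median log2 change was 0.31. With median-of-ratios scaling 80 were higher and 49 lower, 29.3% and 17.9%, where all genes had 29.7% and 29.8%. The higher share then no longer lay above that of all genes. Leaving out unshaded replicate 2 gave 20 lower genes, and so did leaving out ear-shaded replicate 2. The list is described by role, to be read beside the shares of all genes. As deposited, 100% of ribonucleotide reductase genes were higher, 54.8% for helicase activation, 54.5% for MCM relatives and 54.2% for E2F and retinoblastoma regulators. The clamp loader had 50%. Near the 42.4% of all genes were polymerases and primase at 44.9%, single-strand binding at 43.1% and histone deposition at 42.9%. Origin loaders had 30.8% and lagging-strand enzymes 28.6%.

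Ribonucleotide reductase, which makes the deoxynucleotides for replication, was higher in 13 of 13 tested genes as deposited, with a median log2 change of 1.11, and in 9 of 13 with median-of-ratios scaling. Its small-subunit copy AVESA.00010b.r2.5CG0899790 (RRM2) was at 16.5, 18.2 and 15.7 FPKM in the unshaded and 35.0, 35.1 and 42.8 FPKM in the ear-shaded libraries. All ear-shaded values lay above all unshaded ones, and the gene rose 2.24-fold (limma adjusted p = 0.000303). The large-subunit copy AVESA.00010b.r2.7AG1205060 (RRM1) rose 1.72-fold, from 14.4 ± 1.11 to 24.8 ± 1.08 FPKM (SD, n = 3; limma adjusted p = 0.00103).

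Among the factors that turn the loaded ring into an active helicase, 17 of 31 tested genes were higher and 3 lower as deposited, 9 and 4 with median-of-ratios scaling. CDC45, which binds the ring at firing, was higher in 5 of 5 genes as deposited and with median-of-ratios scaling, but in 1 of 5 with quantile normalization. Its most abundant copy, AVESA.00010b.r2.5AG0832870, was at 1.60, 1.27 and 1.12 FPKM against 2.46, 2.33 and 2.81 FPKM, 1.91-fold higher (limma adjusted p = 0.00379). Within GINS, the complex that joins CDC45 on the ring, the subunits split. GINS2 was higher in 5 of 5 genes as deposited and in 1 of 5 with median-of-ratios scaling. GINS3 was lower in 3 of 3 as deposited and with each of the 4 scalings. The GINS3 copy AVESA.00010b.r2.5CG0877130 was at 9.27, 11.7 and 10.1 FPKM in the unshaded and 3.26, 4.24 and 6.16 FPKM in the ear-shaded libraries, with a log2 change of -1.06 (limma adjusted p = 0.00214).

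The loaders that place the ring on origins had 8 of 26 genes higher and 3 lower as deposited, and 1 higher and 5 lower with median-of-ratios scaling. Their median log2 change was 0.11. CDT1, a loading factor, was at 4.43 ± 0.690 and 6.60 ± 0.336 FPKM in its copy AVESA.00010b.r2.1CG0092600 (SD, n = 3), 1.49-fold higher as deposited (limma adjusted p = 0.00993). The ORC1 copy AVESA.00010b.r2.5CG0870800 was 1.56-fold higher as deposited (limma adjusted p = 0.00478). With median-of-ratios scaling these 2 no longer passed.

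The MCM relatives outside the ring, MCM8 and MCM9, act in recombination repair in animals and Arabidopsis. Of 11 tested, 6 were higher and 1 lower. AVESA.00010b.r2.5DG0974290 (MCM8) was at 2.32, 1.70 and 2.55 FPKM in the unshaded and 10.2, 9.69 and 9.93 FPKM in the ear-shaded libraries. It rose 4.53-fold, above every long model of MCM2 to MCM7 (limma adjusted p = 4.70e-05).

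Polymerases and primase had 22 of 49 tested genes higher and 5 lower, and 13 and 8 with median-of-ratios scaling. Polymerase delta, the partner of PCNA, was divided. Its catalytic entry POLD1 was higher in 10 of 11 genes, but the most abundant, AVESA.00010b.r2.2CG0301790 at 2.83-fold (limma adjusted p = 0.00371), carries another KEGG entry as well. POLD3 copy AVESA.00010b.r2.3CG0467430 rose 1.75-fold (limma adjusted p = 0.00176). POLD2 copy AVESA.00010b.r2.4CG1272690 and POLD4 copy AVESA.00010b.r2.5CG0879060 fell, with log2 changes of -0.38 and -0.59 (limma adjusted p = 0.0137 and 0.00830). As deposited, POLD2 had 1 of 4 tested genes lower and POLD4 had 2 of 5, with 0 higher in either. The POLE entry of polymerase epsilon had 2 of 4 tested genes higher and 1 lower as deposited. The lower one, AVESA.00010b.r2.6CG1094870, is just 780 bases long and had a log2 change of -0.86 (limma adjusted p = 0.00260). The polymerase alpha subunit copy AVESA.00010b.r2.4CG1275390 (POLA2) was 1.49-fold higher as deposited (limma adjusted p = 0.0114).

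The clamp loader RFC, which opens PCNA and sets it on DNA, had 13 of 26 genes higher and 4 lower as deposited, and 10 and 10 with median-of-ratios scaling. AVESA.00010b.r2.2CG0313840, of the RFC2/4 entry, fell from 11.5 ± 0.967 to 7.07 ± 1.52 FPKM (SD, n = 3; limma adjusted p = 0.00741). Single-strand binding proteins had 28 of 65 higher and 14 lower, and their most abundant model, the 432-base AVESA.00010b.r2.3CG0492240 (RFA1), was 1.54-fold higher as deposited (limma adjusted p = 0.0116). Of the lagging-strand enzymes 4 of 14 were higher and 10 did not pass. Histone deposition factors, which work behind the fork with PCNA, had 6 of 14 higher and 1 lower. The lower one was the histone chaperone ASF1, AVESA.00010b.r2.3DG0544040, which fell from 10.6 ± 1.17 to 5.22 ± 1.09 FPKM (SD, n = 3; limma adjusted p = 0.00138). The CAF-1 subunit copy AVESA.00010b.r2.4CG1290610 (CHAF1B) was 1.71-fold higher as deposited (limma adjusted p = 0.00281). E2F and retinoblastoma-type regulators of S phase genes had 13 of 24 higher and 1 lower, and 6 and 2 with median-of-ratios scaling. The E2F partner AVESA.00010b.r2.1DG0128290 (TFDP1), which carries another entry too, was 1.48-fold higher as deposited (limma adjusted p = 0.00747).

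**Figure D5:**
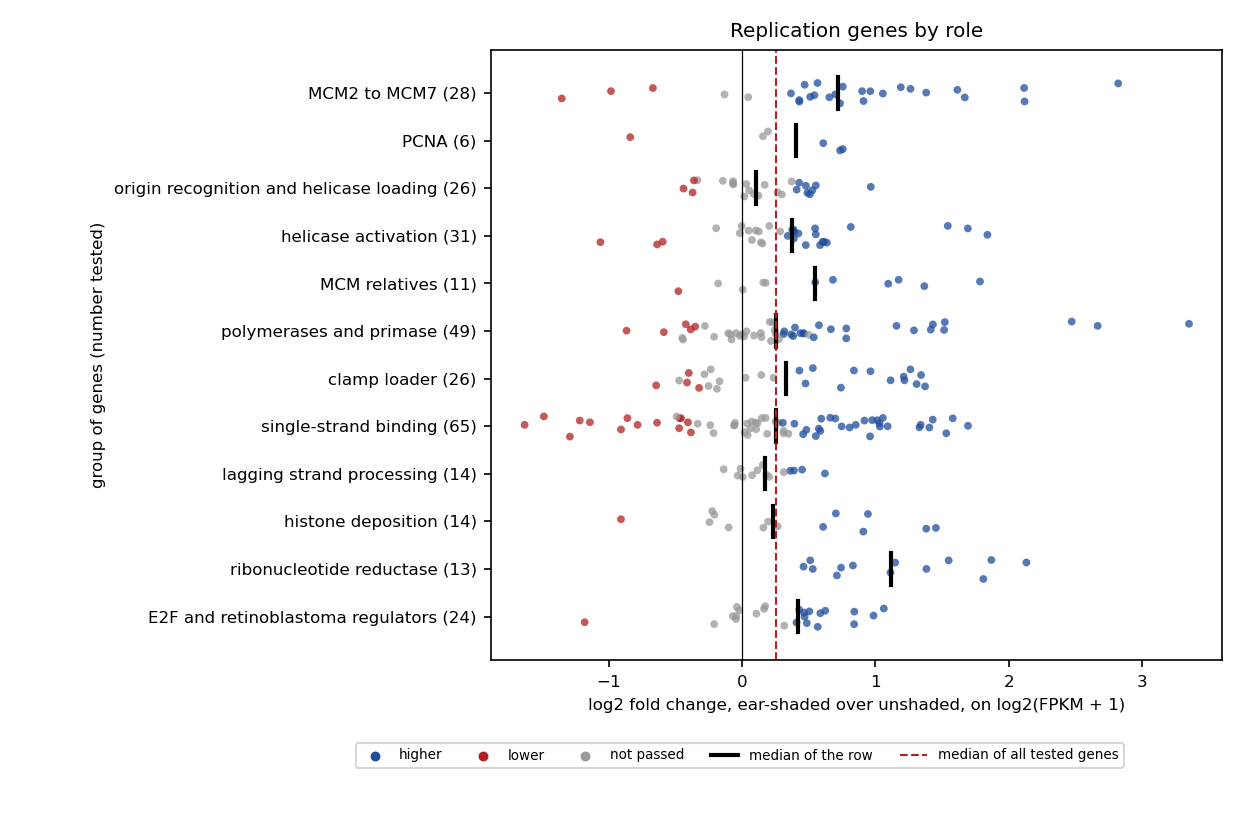
Log2 change on the log2(FPKM + 1) scale, ear-shaded over unshaded, for each tested gene of MCM2 to MCM7, PCNA and 10 further roles in replication, coloured by call as deposited, with row medians in black and the median of all tested genes dashed. Ribonucleotide reductase has 13 of 13 higher, and the origin loaders have a median of 0.11, left of the dashed line at 0.26.

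Taking the most abundant tested copy of each of 48 entries, 21 were higher, 7 lower and 20 did not pass as deposited, and 6 of the 21 and 7 of the 7 passed with median-of-ratios scaling. The 18 of these 28 called genes named here kept their call without each library in turn. The remaining 10 lost it without at least 1 library (adjusted p from 0.0517 to 0.108).

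Lists chosen to stand for dividing cells were read in the same fit. Core and linker histones were taken by KEGG entry, and whether each is made in S phase was not tested. Of these histones, 102 of 327 tested genes were higher and 30 lower as deposited. Both shares, 31.2% and 9.17%, lay below the 42.4% and 21.5% of all genes, and their median log2 change was 0.29 beside 0.26. The higher count was 64 without unshaded replicate 1, and the lower count ran from 12 without ear-shaded replicate 2 to 61 without ear-shaded replicate 3. With median-of-ratios scaling 48 were higher and 58 lower, 14.7% and 17.7%, where all genes had 29.7% and 29.8%. With quantile normalization 127 were higher and 35 lower, 38.8% and 10.7%, where all genes had 31.2% and 28.6%, so the order of the higher shares turned. As deposited, histone H4 had 4 of 81 higher and 16 lower, 4.94% and 19.8%. H3 had 34 of 74 higher and 4 lower, 45.9% and 5.41%, with the higher share near the 42.4% of all genes. With median-of-ratios scaling H4 had 4 higher and 27 lower, 4.94% and 33.3%. H3 then had 13 and 6, 17.6% and 8.11%, both below the 29.7% and 29.8% of all genes. Genes annotated as cyclins or kinesins had 90 of 155 higher and 10 lower as deposited, 58.1% and 6.45%. With median-of-ratios scaling they had 60 and 15, 38.7% and 9.68%. Their median log2 change was 0.56 as deposited. Kinesins, taken by name, were 100 of the 155, and whether each serves cell division was not tested.

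The genes whose pattern over the 6 libraries lay closest to the summed FPKM of the 34 were sought among 10270 genes with a KEGG entry and a mean of at least 5 FPKM. Likeness was measured as the root mean square difference of centred log2 values. The closest were AVESA.00010b.r2.4DG0763520, annotated as elongation factor Tu, at 0.0249, and AVESA.00010b.r2.3AG0413740, annotated as ribosomal protein L18e, at 0.0267. AVESA.00010b.r2.3CG0453180, AVESA.00010b.r2.4DG0719310 and AVESA.00010b.r2.4CG1285370, the last annotated as a chaperonin CCT subunit, followed at 0.0347, 0.0412 and 0.0432. Their folds ran from 1.46 to 1.60, beside 1.47 for the sum, a closeness that follows from how they were chosen.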

How the data were processed

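FPKM per gene for 6 libraries of peeled oat grains, 3 unshaded and 3 ear-shaded by the treatment label, were used as deposited by the authors. Per the labels' protocols, fragmented mRNA was copied with random primers and made into cDNA fragments of 250 to 300 bases by an Illumina kit, while a PacBio machine is named for the sequencing, so the platform is not settled. HISAT2 and StringTie are named, without version or role, in the submitters' processing notes. The genome build, the annotation, the use of strand and the treatment of multi-copy reads are steps not given in the sources used here. The deposited table also holds the gene length in bases, the authors' log2 fold change and the authors' p-value with its adjusted value. No count was available, so depth is unknown and no counting interval is given.

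The 58283 genes that averaged 1 FPKM or more across the libraries were fitted on log2(FPKM + 1) with limma 3.58.1 in R 4.3.3, with a mean-variance trend. Tests were two-sided at a threshold of 0.05 after Benjamini-Hochberg adjustment across these genes. A log2 change on that scale understates the change of low genes, and folds are ratios of group means in FPKM. Sums and ratios over several genes were described and not tested, since 3 against 3 libraries cannot give an exact two-sided p below 0.1. The fit was tested on simulated data.

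The genes followed, the comparison lists and the markers were chosen with earlier results of these data known. In each of the 7 groups the rule for naming took the 3 genes of the highest mean, the largest change and any gene called against its group. Of the other replication genes it took the most abundant copy of each entry. Of those, only genes that passed in the full comparison and without each library in turn are named. The most abundant copy is the one with the highest mean over the 6 libraries. Further MCM and PCNA genes are named to account for all members.

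Other settings tried were a smaller pseudocount, no filter or a filter at 5 FPKM, 4 scalings, no trend, library weights, the replicate block, a threshold on the fold, each library left out, ear-shaded replicates 1 and 2 averaged, and rows with another KEGG entry left out. The cut at 2000 bases, the list without RFA1 and the sum weighted by length were chosen after seeing the data. No sequences or positions of genes are given. Tables and figures were made with Python 3.11.15 and matplotlib 3.10.9.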

Additional observations from a re-analysis of the deposited data

How the results depend on the processing

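Of the 26 higher calls among the MCM and PCNA genes, 15 were left with median-of-ratios scaling and 12 with a fold threshold of 0.5 on the log2 scale. Leaving out MCM models under 2000 bases gave 17 higher and 1 lower of 21, since the 13 models left out held 9 of the higher and 3 of the lower calls. Without each library in turn the higher calls ran from 24 to 26 and the lower calls from 3 to 4. The fold of the summed FPKM was 1.16 with median-of-ratios scaling, 1.258 with upper-quartile scaling and 1.377 to 1.528 without single libraries. In no alternative did a called gene among the 34 change direction. Of genes that did not pass, AVESA.00010b.r2.1CG0105230 changed sign with median-of-ratios (-0.276), quantile (-0.0716) and upper-quartile scaling (-0.168) and without ear-shaded replicate 3 (its range without single libraries was -0.00998 to 0.0978). AVESA.00010b.r2.6DG1153980 changed sign with median-of-ratios (-0.175) and upper-quartile scaling (-0.0639), and AVESA.00010b.r2.2CG0289150 with quantile normalization (-0.0689). AVESA.00010b.r2.3AG0432370 ran from -0.295 to 0.0139 without single libraries. The cause was not tested.

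Same-numbered libraries did not deviate together (correlations of -0.0523, -0.0461 and -0.147), and other pairs ran from -0.0814 to 0.122. With 3 libraries per group the deviations from a group mean depend on each other. Whether the numbers pair the libraries therefore cannot be decided. With the replicate block 23 of the 34 genes were higher and 4 lower, and 21 of the other replication genes were lower in place of 32.

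For the other replication genes (130 higher, 32 lower) the counts were 30 and 15 with a filter at 5 FPKM, 80 and 49 with median-of-ratios scaling, 85 and 52 with quantile normalization, and 52 and 6 with the fold threshold. The lower count was 21 with equal library sums, with replicates 1 and 2 averaged and without RFA1, and ran from 20 to 37 without single libraries. For histones (102 and 30) they were 48 and 58 with median-of-ratios scaling, 59 and 47 with upper-quartile scaling, and 27 and 5 with the fold threshold. The lower count was 55 with library weights and 13 with the averaged replicates. Without single libraries the histone counts ran from 64 to 101 higher and from 12 to 61 lower. For cyclins and kinesins (90 and 10) they were 19 and 3 with the filter at 5 FPKM and 33 and 3 with the fold threshold, and the lower count was 16 with no filter and 17 with quantile normalization. Over all genes (24724 and 12503) they were 7292 and 5275 with the filter at 5 FPKM, where fewer genes were tested, 10435 and 6443 with the fold threshold, and 38730 higher with no filter. What depth limits cannot be read from FPKM.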
